A study of Mus musculus with 4 samples.

Results

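ATAC-Seq, which marks open chromatin by the sites where the Tn5 transposase inserts adapters, was examined at 10 genes of the Notch pathway in primary chondrocytes from mouse rib cartilage. They were chosen by symbol for their role in the pathway and not by a measured value. They are the receptors Notch1, Notch2 and Notch3, the ligands Jag1 and Dll1, the DNA-binding factor Rbpj and the targets Hes1, Hey1, Hey2 and Heyl, which makes 10 of the 18101 protein-coding genes that were found by symbol in both annotations used. There were 4 libraries. Cho, chondrocytes for which the labels give no genotype, had 2 replicates (Cho Rep1 and Cho Rep2). WT and E160(delta/delta);E308(delta/delta), here called the deletion, had 1 library each. E160 and E308 are enhancers far upstream of Sox9, a transcription factor gene of cartilage, and the deletion mice lack both in every cell, since both were removed in embryos by CRISPR/Cas9. WT animals were littermates of the deletion mice. Cells came from newborn mice and were used after short culture; whether a library held cells of 1 animal or of several was not given in the sources used here. With 1 library for each genotype, every comparison of the deletion and WT compares 2 libraries and carries no p-value.

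Notch signaling passes between neighboring cells. A ligand on one cell binds a receptor on the next, the receptor is cut, and its intracellular part enters the nucleus, where it joins the protein encoded by Rbpj on DNA and switches on genes such as the Hes and Hey repressors. In cartilage the pathway is known to hold back chondrocyte differentiation when it is strongly active and to take part in the maturation of growth plate chondrocytes.

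Each library had its own peak list. The number of peaks was 76242 in Cho Rep1, 148330 in Cho Rep2, 90971 in WT and 169591 in the deletion. The background pileup, which is the number of overlapping fragments expected at a site by chance and rises with depth, was 0.361 in WT and 0.626 in the deletion, so the deletion library had 1.73 times the WT background and 1.86 times its peaks. Cho Rep1 had been called with 1 background for all peaks, whereas the other lists used a local background, and its fold enrichments are therefore on a different base. Positions are those of NCBIM37 (mm9) in 3 lists and of GRCm38 (mm10) in Cho Rep2. At the deleted elements the WT list had a fold enrichment of 15.4 at E308 and 13.4 at E160. In the deletion library no peak overlapped E160, and a peak of 4 fragments, the smallest called in that list, overlapped E308. Of 8 chondrocyte marker genes, 7 had a promoter peak in Cho Rep2, WT and the deletion, and 3 had one in Cho Rep1. Comp had none in any list. Markers of other cells were also called. Of 6 endothelial markers, 3 had a promoter peak in WT and 3 in the deletion, and of 4 mural cell markers 3 and 4 did. For blood the counts were 1 and 1 of 4, for skeletal muscle 1 and 2 of 4, and for fibroblasts and perichondrium 3 and 4 of 4. Of all 30 markers, those of chondrocytes included, 60% had a promoter peak in WT, against 62% of all protein-coding genes. In the deletion 21 of the 30 did, against 67.8% of all genes.

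A promoter was called open when a peak summit lay within 1 kb of the 5′ end of the gene record. By this rule 9 of the 10 genes were open in Cho Rep1, 9 in Cho Rep2, 8 in WT and 9 in the deletion. Over all protein-coding genes the share was 58.6%, 64.7%, 62% and 67.8%, in the same order. Notch1, Notch2, Notch3, Jag1, Dll1, Hes1, Hey1 and Hey2, 8 genes, were called in all 4 lists, as were 52.6% of all genes. The exceptions were Rbpj and Heyl. Fold enrichment, which is the summit pileup plus 1 over the background plus 1, ran from 5.25 to 19.1 in WT and from 5.58 to 16.0 in the deletion. The members' median was 13.1 in Cho Rep1, 7.78 in Cho Rep2, 7.80 in WT and 8.77 in the deletion, against 12.2, 17.6, 12.7 and 12.4 over all open promoters, so it was the lower in all lists but Cho Rep1. In Cho Rep2, Notch1 entered these numbers at a downstream start, with 4.78. At the upstream start used in the other lists it had 14.5, and the Cho Rep2 median depends on this choice. Above the all-promoter median lay 5 of 9 called genes in Cho Rep1, 2 of 9 in Cho Rep2, 3 of 8 in WT and 1 of 9, Hey2, in the deletion. By summit pileup over library background the numbers were 5, 3, 4 and 3.

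**Figure D1:**
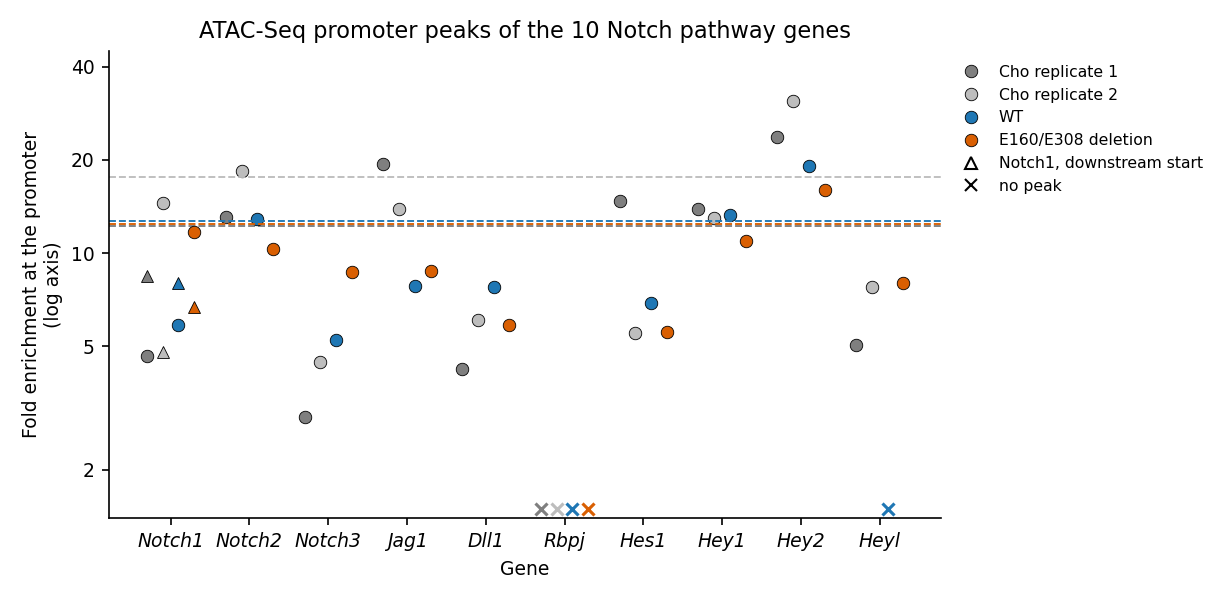
Fold enrichment at the promoter (log axis) of the 10 genes in the 4 libraries, 1 point per library, with dashed lines at the median of all open promoters in each library. Hey2 is the highest gene in all 4 libraries, from 16.0 to 31.1, Rbpj has no peak at its annotated 5′ end, and Notch1 is shown at its upstream start (circles) and its downstream start (triangles).

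The receptor genes differed widely. Notch2 (chr3:97817461-97954290, plus strand, NCBIM37) had the strongest receptor promoter in Cho and WT. Its fold enrichment was 13.1 in Cho Rep1, 18.5 in Cho Rep2, 12.8 in WT and 10.3 in the deletion, close to the all-promoter median in the first 3. Notch3 (chr17:32257765-32303825, minus strand) had the weakest promoter of the called genes in both Cho replicates and in WT, with 2.96, 4.44, 5.25 and 8.68 in the same order. In Cho Rep1 the Notch3 peak held 6 overlapping fragments, the smallest pileup called in that list. The Cho mean was 15.8 ± 3.80 (SD, n = 2) at Notch2 and 3.70 ± 1.05 (SD, n = 2) at Notch3, and their replicates did not overlap. In Cho Rep2 the highest summits lay 597 bp and 756 bp inside Notch2 and Notch3, whereas in the other lists they lay between −70 and 31 bp from the start. These were choices among peaks of similar height. Notch2 also had a peak at 595 bp in WT (11.4) and at 598 bp in the deletion (10.3). Cho Rep2 also had a Notch3 peak at −54 bp (4.40).

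Notch1 (chr2:26313423-26372183, minus strand) has more than 1 start. The 5′ end of the NCBIM37 gene record lies 12841 bp upstream of the start that matches the GRCm38 gene, and both were open. At the upstream start the fold enrichment was 4.65 in Cho Rep1, 14.5 in Cho Rep2, 5.88 in WT and 11.7 in the deletion. In Cho Rep2 this start was placed by its distance from the downstream one. At the downstream start it was 8.45 in Cho Rep1, 4.78 in Cho Rep2, 7.99 in WT and 6.73 in the deletion. By fold enrichment the downstream start was thus the higher in Cho Rep1 and WT, and the upstream start in Cho Rep2 and the deletion. The pileup was larger at the downstream start in all 4, with 19, 85, 28 and 39 fragments against 10, 42, 7 and 18 upstream. The local background there was high, 2.63 in WT and 4.95 in the deletion, which lowers the fold enrichment of a site that many fragments cover. The RefSeq promoters of Notch1 and Notch3 (GRCm38.p6) are shown because these genes had the largest ratios of the deletion to WT. For Notch1 that ratio was found at the upstream start. The Notch1 sequence shown lies before the downstream start, where the ratio of fold enrichments was 0.842, lower in the deletion. The Notch1 sequence runs from 250 to 3 bases before the downstream start, chr2:26503825-26504072 on the minus strand, and the Notch3 sequence from 250 to 1 bases before its start, chr17:32166891-32167140 on the minus strand. Capitals would mark TGGGAA, the core letters bound by RBPJ, on either strand, and neither sequence holds them.
Notch1 promoter: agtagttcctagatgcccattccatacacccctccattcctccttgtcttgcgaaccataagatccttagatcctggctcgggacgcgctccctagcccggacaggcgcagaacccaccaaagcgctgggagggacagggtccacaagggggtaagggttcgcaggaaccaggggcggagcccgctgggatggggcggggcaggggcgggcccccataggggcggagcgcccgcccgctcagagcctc
Notch3 promoter: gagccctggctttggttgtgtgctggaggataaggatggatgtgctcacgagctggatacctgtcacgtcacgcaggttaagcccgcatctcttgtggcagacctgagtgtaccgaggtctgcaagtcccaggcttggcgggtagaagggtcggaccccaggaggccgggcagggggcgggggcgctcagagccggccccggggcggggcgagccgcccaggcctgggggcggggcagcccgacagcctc

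Of the ligand genes, Jag1 (chr2:136907192-136942380, minus strand) was the more open. Its fold enrichment was 19.4 in Cho Rep1, 13.9 in Cho Rep2, 7.83 in WT and 8.77 in the deletion. Dll1 (chr17:15504318-15513836, minus strand), which is known for its role in somites, had 4.22, 6.11, 7.76 and 5.87. The Cho replicates of Jag1 lay above those of Dll1, with means of 16.7 ± 3.90 and 5.17 ± 1.33 (SD, n = 2 each). In WT both ligands had nearly the same fold enrichment, but the Jag1 summit held 29 fragments and the Dll1 summit 13, a pileup ratio of 2.23 (95% counting interval 1.12 to 4.67). The local background was 2.83 at Jag1 and 0.803 at Dll1.

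Rbpj (chr5:53947018-54048684, plus strand), the gene for the factor through which all Notch receptors act on DNA, had no peak within 1 kb of its annotated 5′ end in any of the 4 lists. An internal protein-coding start 34436 bp downstream was open in all 4. There the fold enrichment was 21.5 in Cho Rep1, 13.2 in Cho Rep2, 11.1 in WT and 8.81 in the deletion. The highest summit lay at −888 and −872 bp from this start in the Cho lists. In WT and the deletion it lay at 93 and 77 bp. Both sites were called in Cho Rep2, WT and the deletion, and a single interval covered both in Cho Rep1. The weaker site had 12.1 in Cho Rep2, 7.89 in WT and 8.40 in the deletion. The WT summit pileup of 46 was larger than that of any of the 8 promoters called at a gene's 5′ end in WT. Counted at any annotated transcript start, all 10 genes were open in each of the 3 NCBIM37 lists. Both RefSeq promoters of Rbpj lie at this internal start, 34567 and 34707 bp from the 5′ end. The first is shown from 250 to 132 bases before its start, the part that no NCBIM37 exon covers, at chr5:53590096-53590214 on the plus strand of GRCm38.p6. It holds 1 TGGGAA, in capitals.
Rbpj promoter: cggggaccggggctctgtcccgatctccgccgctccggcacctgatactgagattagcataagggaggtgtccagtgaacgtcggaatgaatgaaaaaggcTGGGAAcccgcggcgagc

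Among the targets, Hey2 had the highest fold enrichment in every list, and the lowest called value was that of Heyl in Cho Rep1 and of Hes1 in the other 3. In Cho Rep2 the rank of Hes1 depends on the peak used. An upstream Hes1 peak outside the 1 kb window had 8.37 there, above the 7.78 of Heyl. Hey2 (chr10:30552165-30562607, minus strand), a repressor gene of the heart and vessels that Notch activates, had a fold enrichment of 23.6 in Cho Rep1, 31.1 in Cho Rep2, 19.1 in WT and 16.0 in the deletion, the highest of the 10 genes in each list. By summit pileup Hes1 was above Hey2 in WT (44 and 41 fragments) and in the deletion (57 and 46). Jag1 was also above Hey2 in the deletion (51 fragments), and Notch2 in Cho Rep2 (221 and 209). The percentile of Hey2 among all open promoters was 81.8, 91.6, 90.9 and 76.0 by fold enrichment. By summit pileup over library background it was 81.8, 70.8, 75.2 and 58.8. Hey1 (chr3:8663362-8667039, minus strand), a close relative, was the steadiest across the lists, with 13.9, 13.0, 13.3 and 11.0 and a Cho mean of 13.5 ± 0.637 (SD, n = 2). Of the 7 RefSeq promoters that could be matched to the 10 genes, that of Hey2 alone held GTGGGAA, the longer form of the RBPJ letters. It is shown from 250 to 19 bases before the RefSeq start, the part outside NCBIM37 exons, at chr10:30842802-30843033 on the minus strand of GRCm38.p6, with TGGGAA or its reverse complement in capitals.
Hey2 promoter: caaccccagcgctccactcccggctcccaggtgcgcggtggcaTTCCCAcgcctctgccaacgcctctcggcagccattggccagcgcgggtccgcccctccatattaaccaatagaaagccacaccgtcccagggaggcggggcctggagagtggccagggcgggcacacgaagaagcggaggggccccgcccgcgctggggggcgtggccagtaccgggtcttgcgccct

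Heyl (chr4:122910799-122927118, plus strand), the third Hey gene, was weak at its 5′ end in 3 lists and had no peak there in the other. Its fold enrichment at the 5′ end was 5.07 in Cho Rep1, 7.78 in Cho Rep2 and 7.99 in the deletion, and no peak was called there in WT. The deletion summit held 12 fragments, which corresponds to 6.92 at the WT background, and the weakest peaks of the WT list held 4. The number of WT fragments at the Heyl 5′ end is not known from a peak list. A peak 6106 bp inside the gene lay within 1 kb of another annotated Heyl transcript start. It had 5.07 in Cho Rep1, 14.5 in Cho Rep2, 10.9 in WT and 15.3 in the deletion.

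Hes1 (chr16:30064470-30067882, plus strand), the classical Notch target, ranked very differently by the 2 measures. Its fold enrichment was 14.8 in Cho Rep1, 5.55 in Cho Rep2, 6.91 in WT and 5.58 in the deletion, with percentiles among open promoters of 60.1, 6.40, 13.4 and 8.09. By summit pileup over library background it was far higher in the genotype libraries. The WT summit held 44 fragments, 122 times the library background (percentile 80.2), and the deletion summit 57 fragments, 91.1 times the background (percentile 78.4). The local background at Hes1 was 5.51 in WT and 9.40 in the deletion, against a median over open promoters of 1.22 and 2.07. Hes1 has a pair of peaks at its 5′ end, and the Cho Rep1 value is that of the summit 872 bp inside the gene record. In WT one summit lay at −238 bp from the start of the NCBIM37 gene record, with a fold enrichment of 6.91, and the other at −155 bp from the protein-coding start, with 6.26. The genes with the most similar percentiles over the 4 libraries, among 9528 compared, were Vcan, Emilin1 and Arpc1b, at distances of 5.18, 5.54 and 6.85 percentile points from Hes1.

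The order of the genes within a library was only partly resolved. Among genes next to each other in fold enrichment, the 95% counting interval of the ratio of their pileups included 1 for 7 of 8 pairs in Cho Rep1, 3 of 8 in Cho Rep2, 4 of 7 in WT and 4 of 8 in the deletion. In WT, Hey2, Hey1 and Notch2 did not differ beyond counting error, with pileups of 41, 32 and 36, nor did Notch1 and Notch3, with 7 each. The fold from Cho Rep1 to Cho Rep2 ran from 0.375 at Hes1 to 1.54 at Heyl, with 0.566 at the downstream start of Notch1, but was 3.13 at the upstream start of Notch1. Over all promoters the central 95% of this fold ran from 0.387 to 4.76, with a median of 1.40. These Cho values differ in calling settings and build as well as in sample, and the parts cannot be told apart.

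The deletion and WT libraries were then compared to ask whether chromatin at Notch pathway promoters differed once both Sox9 enhancers were gone. Of 8 promoters with a peak in both lists, Notch1 (at the upstream start) and Notch3 had a fold enrichment at least 1.5 times higher in the deletion and none was lower by as much. Among all 11185 promoters with both values 6.7% were higher in the deletion by that factor and 0.393% were lower. That share covers promoters of all strengths. Where pileups are small, the 1 added to pileup and background weighs more on this ratio. Its part in the values was not tested. At Notch1 the ratio was 1.99 (5.88 in WT and 11.7 in the deletion) and at Notch3 it was 1.65 (5.25 and 8.68). Both rested on 7 WT and 18 deletion fragments. After scaling by library background the pileup ratio was 1.48 at each, with a 95% counting interval of 0.591 to 4.20. At the downstream start of Notch1, where the pileups were 28 and 39, the ratio of fold enrichments was 0.842 and that of scaled pileups 0.803 (0.482 to 1.36). The higher value in the deletion was found at the upstream start, which fewer fragments covered, and not at the start that RefSeq uses.

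Endothelial cells are known to express Notch1, and mural cells Notch3, and the called endothelial markers also had a higher fold enrichment in the deletion. From WT to the deletion the fold enrichment at Pecam1 was 8.31 and 16.5, at Tek 4.41 and 7.99 and at Kdr 5.88 and 7.69, while Cdh5, Tie1 and Emcn, 3 defining genes of the 6 listed, had no promoter peak in any list. The scaled pileup ratio was 1.42 at Pecam1 (0.680 to 3.16), 1.38 at Tek (0.454 to 5.01) and 0.989 at Kdr (0.359 to 2.96). For mural cells the values were 11.9 and 8.73 at Pdgfrb, 9.36 and 9.01 at Acta2 and 6.74 and 5.09 at Cspg4, and Rgs5 had a peak in the deletion and not in WT. Of the 4 blood markers Lyz2 was called, with 11.0 and 16.6. The median ratio of the deletion to WT was 1.81 over the 3 endothelial markers with both values. It was 1.02 over 7 chondrocyte markers and 1.13 over 3 of fibroblasts and perichondrium. Myod1, the 1 skeletal muscle marker with both values, had a ratio of 1.31, as did Kdr. The part of other cells in these values was not tested. In bulk chromatin, more cells of a type and more open chromatin per cell cannot be told apart.

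The other 6 promoters differed from WT by less than 1.5 times in fold enrichment, and all but Jag1 were lower in the deletion. The ratio of the deletion to WT was 1.12 at Jag1, 0.837 at Hey2, 0.826 at Hey1, 0.807 at Hes1, 0.803 at Notch2 and 0.756 at Dll1. The share of all promoters with a lower ratio was 70.0% for Jag1, 10.9% for Hey2 and 9.01% for Hey1. It was 6.85% for Hes1, 6.31% for Notch2 and 2.74% for Dll1. No counting interval of the scaled pileup ratio excluded 1 for any of the 8 genes. The interval was narrowest on the log scale at Hes1, from 0.495 to 1.13, and ended at 1.01 for Hey2 and 1.03 for Notch2. The median log2 ratio of the members was −0.27, against 0.01 over all promoters, of which the central 95% lay between −0.41 and 0.83. On the scaled pileups the medians were −0.45 and −0.26. By that measure Notch2, Hey2 and Dll1, 3 of the 8 genes, were at most 1/1.5 of WT, with ratios of 0.641, 0.647 and 0.665, and none reached 1.5 in the other direction. Of all promoters 6.56% fell that low and 2.41% reached 1.5. The scaled measure thus moved the median of all promoters from 0.01 to −0.26, and these counts are to be read against it. The ratios of all 8 genes lay within the range of the members' ratios between the Cho replicates, from 0.375 at Hes1 to 3.13 at the upstream start of Notch1. Without that start the upper end was 1.54, and Notch1 and Notch3 lay above it. The Cho lists differ in calling settings and build, so this range does not measure replicate spread and cannot show that the libraries are alike. The spread between replicates of 1 genotype is not known.

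**Figure D2:**
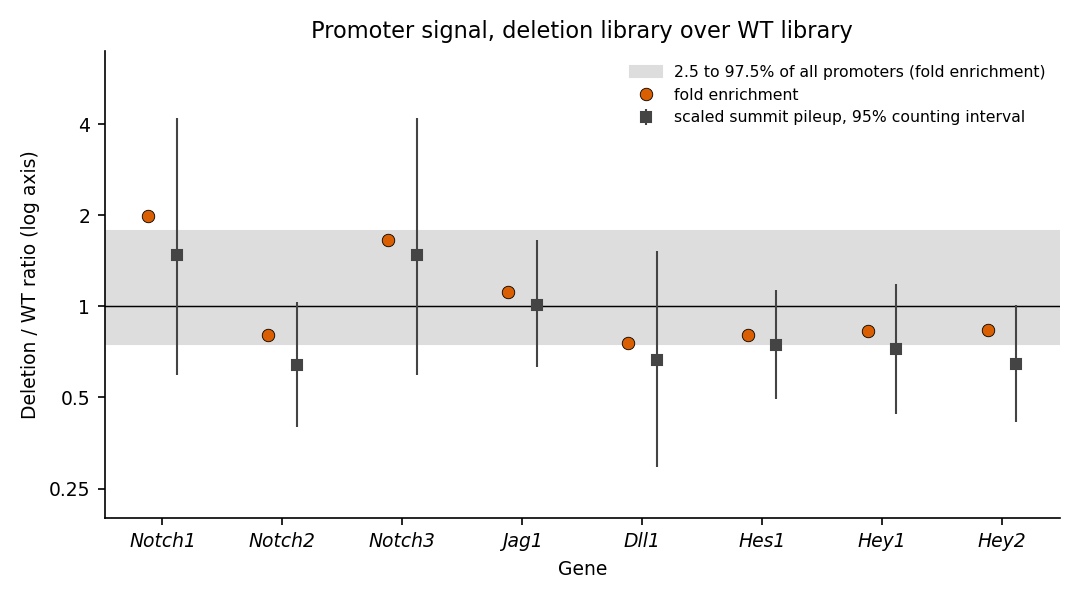
Ratio of the deletion library to the WT library at the 8 promoters with a peak in both (log axis), as fold enrichment (circles) and as summit pileup scaled by library background (squares with 95% counting intervals), over a grey band for the central 95% of all promoters. The intervals of all 8 genes include 1, and Notch1, with a fold enrichment ratio of 1.99, is the only gene above the band.

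Peaks were next counted over each gene body with 50 kb on either side. The 10 loci held 98 peaks in Cho Rep1, 195 in Cho Rep2, 125 in WT and 212 in the deletion. The deletion had 1.70 times as many as WT, and the median over all loci was 1.69. The loci differed in how densely they were covered. Notch1 had 22 WT peaks, or 13.9 per 100 kb (percentile 92.2 of all loci), Hes1 had 12.6 (percentile 88.6) and Notch2 had 27 peaks, or 11.4 (percentile 84.4). Notch3 had 11.0, Heyl 10.3, Rbpj 7.44 and Jag1 6.66. Dll1, Hey2 and Hey1 had 3.65, 3.62 and 2.89, below the median of 5.84. Hey2 thus had the highest promoter fold enrichment of the set and few peaks around it. Of the 125 WT peaks, 52 lay in introns, 55 between genes and 18 in exons, 16 lay within 1 kb of a start of the gene itself and 14 within 1 kb of the start of another gene. WT peaks were listed in all 4 libraries in 65 cases, by overlap in the NCBIM37 lists and by distance from the start in Cho Rep2. The same share over all WT peaks is not given here.

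Nearly all WT peaks of these loci were also in the deletion list. Of the 125, 121 were overlapped by a deletion peak (96.8%, 95% exact binomial interval 92.0% to 99.1%), and the share over all WT peaks was 95.9%. The 4 that were not lay at Notch1, Notch2, Jag1 and Heyl. In the other direction, 117 of 212 deletion peaks were overlapped by a WT peak (55.2%, 48.2% to 62.0%), against 49.4% of all deletion peaks. The 95 deletion peaks with no WT overlap were weaker, with a median fold enrichment of 4.50 against 9.05 for the shared ones. The same medians over all deletion peaks were 4.92 and 9.50. Of the 95, 54 were matched by a peak of at least 1 Cho list. The same share over all deletion peaks without a WT overlap is not given here, so this count cannot be judged against it. Among the 121 shared peaks, the fold enrichment was at least 1.5 times higher in the deletion at 21 (17.4%) and lower by that factor at none, and 26.2% of all shared peaks were higher and 0.893% lower. The median log2 ratio was 0.15 at these loci and 0.28 over all shared peaks.

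**Figure D3:**
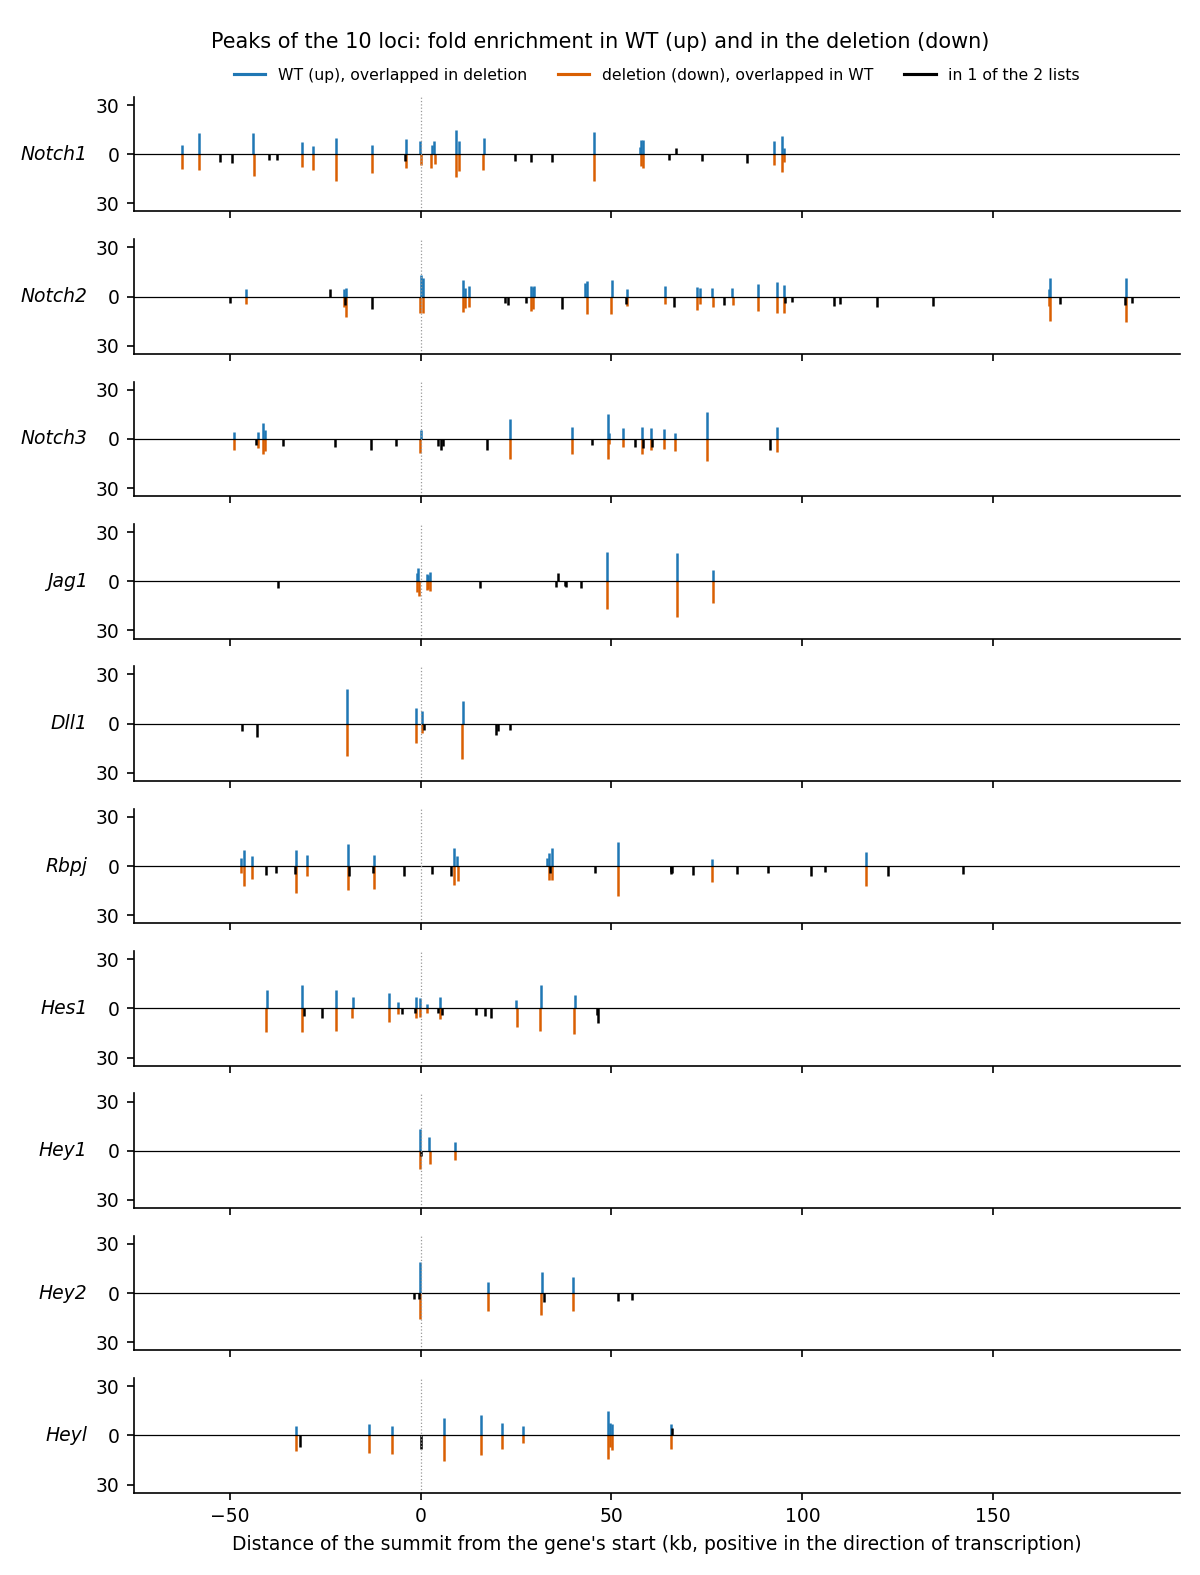
Fold enrichment of every peak within the gene body and 50 kb on either side for the 10 genes, by distance of the summit from the gene's start in kb (for Notch1 and Hes1 the start that matches GRCm38), with WT upward and the deletion downward and peaks without an overlap in the other list in black. The 95 black deletion peaks are short, with a median fold enrichment of 4.50, and 4 WT peaks are black.

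The shared peaks with the largest ratios were weak in WT. The largest was 19.4 kb upstream of Notch2, with a fold enrichment of 8.45 in Cho Rep1, 18.2 in Cho Rep2, 5.23 in WT and 12.3 in the deletion, a ratio of 2.35. A peak 25.1 kb downstream of the Hes1 start had 5.15 in WT and 11.6 in the deletion (ratio 2.26), and an intronic peak of Rbpj at 76.4 kb had 4.41 and 9.78 (2.22). These 3 WT summits held 7, 6 and 5 fragments. At the other end, an exonic peak of Notch1 3.64 kb inside the gene had 8.25 in WT and 5.97 in the deletion, a ratio of 0.724.

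For 9 of the genes the strongest WT peak away from any gene start that was also in the deletion list is given here. At Notch1 it lay in an intron 9.19 kb from the start, chr2:26350012-26350277, with 15.6 in Cho Rep1, 17.8 in Cho Rep2, 14.9 in WT and 13.8 in the deletion, nearly level in all 4 and stronger than either Notch1 promoter. At Notch2 it lay 184.9 kb from the start, beyond the end of the gene at chr3:98002095-98002488, with 5.91, 19.2, 11.3 and 15.8 in the same order. At Rbpj it was an intronic peak 51.6 kb from the 5′ end, chr5:53998531-53998808, with 8.87, 29.3, 15.0 and 18.2. At Dll1 it lay 11.0 kb from the start and beyond the end of the gene, chr17:15502773-15502985, with 6.76, 37.7, 14.0 and 21.4, and it exceeded the Dll1 promoter in every library. Near Notch3 it lay 49.0 kb from the start in an intron of the long noncoding RNA gene Gm17276, chr17:32254651-32255179, with 8.87, 18.8, 15.4 and 12.5. Near Jag1 it lay 48.8 kb from the start in an exon of the neighboring gene 2210009G21Rik, with 16.0, 22.4, 17.7 and 17.0. The Hes1 site, 31.1 kb upstream, had no peak in Cho Rep1 and 26.7, 14.4 and 14.5 in the others. Those of Hey1 and Heyl lay in exons of the genes themselves, 2.30 kb from the Hey1 start with 9.71, 14.3, 8.43 and 8.25, and 15.8 kb from the Heyl start with no peak in Cho Rep1 and 19.9, 12.3 and 12.1 in the others. For each of the 9 the 95% counting interval of the scaled pileup ratio at this site included 1. The lowest ratio was 0.609 at Heyl (0.302 to 1.23) and the highest 1.09 at Dll1 (0.610 to 2.02).

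The sequence of 201 bases around the WT summit is given for 4 of these sites, outside annotated exons and read from the plus strand of NCBIM37, as examples that hold the letters below. The Notch2 site held neither set of letters. Capitals mark GTGGGAA or the AP-1 letters TGANTCA on either strand. The Notch1 site is chr2:26350056-26350256, Notch3 chr17:32254702-32254902, Dll1 chr17:15502745-15502945 and Rbpj chr5:53998555-53998755.
Notch1 intron: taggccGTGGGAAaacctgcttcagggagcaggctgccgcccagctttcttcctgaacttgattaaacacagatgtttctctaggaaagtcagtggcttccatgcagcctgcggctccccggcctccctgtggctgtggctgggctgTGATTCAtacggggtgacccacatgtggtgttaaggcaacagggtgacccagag
Notch3 distal: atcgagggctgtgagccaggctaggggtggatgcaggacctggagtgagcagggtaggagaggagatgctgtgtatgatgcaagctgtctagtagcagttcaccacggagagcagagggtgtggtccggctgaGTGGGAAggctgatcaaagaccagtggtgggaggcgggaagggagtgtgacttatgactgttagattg
Dll1 downstream: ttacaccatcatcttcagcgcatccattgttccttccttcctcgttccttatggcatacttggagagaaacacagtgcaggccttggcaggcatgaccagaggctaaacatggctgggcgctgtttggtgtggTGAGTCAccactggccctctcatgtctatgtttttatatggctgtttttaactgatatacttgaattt
Rbpj intron: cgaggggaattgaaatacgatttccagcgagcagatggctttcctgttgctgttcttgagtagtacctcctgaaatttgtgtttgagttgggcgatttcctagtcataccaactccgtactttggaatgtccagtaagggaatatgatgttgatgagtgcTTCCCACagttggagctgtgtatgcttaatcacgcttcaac

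The reference sequence was then searched for letters linked to Notch signaling and to other factors of these cells, as a description of the sites and not of binding. RefSeq promoters from 250 bases before to 50 after the start matched 7 of the 10 genes: Notch1, Notch2, Notch3, Jag1, Dll1, Rbpj and Hey2. They were rich in G and C, from 55.7% to 73.0%, against a median of 52.7% over all promoters, and held 15 to 41 CG pairs against a median of 7. TGGGAA was found in 2 of the 7, Hey2 and Rbpj, and in 28.3% of all 27025 genes. GTGGGAA was found in Hey2 and in 7.25% of all genes. CACNAG, the N-box that Hes proteins bind, was present in 4 of the 7, Dll1, Notch1, Notch2 and Notch3, and in 46.1% of all genes. CACGTG and the Runx letters TGTGGT were in none of the 7, against 8.09% and 18.9%. The Sox letters ACAAAG and the AP-1 letters TGANTCA were each in Dll1 alone, against 21.0% and 8.97%. The TEAD letters GGAATG were in Hey2, Notch1 and Rbpj, 3 of the 7, against 16.6%. GTGGGAA contains TGGGAA, so these counts overlap, and a gene with more than 1 promoter entry was counted once if any entry held the letters.

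In the 95 distal WT peaks of the 10 loci, GTGGGAA was present in 12 (12.6%), against 7.49% of all distal WT peaks, and TGGGAA in 31 (32.6%) against 29.7%. The 12 lay at Jag1 (4 of 7 distal peaks), Notch1 (3 of 15), Notch3 (2 of 12), Rbpj (2 of 13) and Heyl (1 of 7), and none at Notch2, Hes1, Dll1, Hey1 or Hey2. The intronic Notch1 site at 9.19 kb, the Notch3 site at 49.0 kb and the Rbpj site at 51.6 kb were among them, so the strongest distal peak of 3 loci held the letters. At Jag1 they were in a peak 67.0 kb from the start with 23.2, 33.6, 17.5 and 21.8 in the 4 libraries. Runx letters were in 34.7% of the 95 against 30.0%, AP-1 letters in 25.3% against 27.1%, and Sox letters in 16.8% against 20.8%. No test of these shares was made, and the count of 12 is small.

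The rest of the pathway was examined with 45 further genes, grouped by role. Promoter peaks were called for 32 in Cho Rep1, 39 in Cho Rep2, 38 in WT and 41 in the deletion, and for 29 in all 4 lists. These were 84.4% in WT and 64.4% in all 4 lists, against 62% and 52.6% of all protein-coding genes. Of the 9 genes that process the receptor, 6 were called in all 4 lists. Among them were the sheddase genes Adam10 and Adam17 and the gamma-secretase genes Ncstn, Aph1a and Psenen, whose WT fold enrichments ran from 9.53 to 20.2. Of 10 nuclear partners 8 were called in all 4, and of 8 inhibitors and turnover genes 6 were, with Numb at 35.5, 28.1, 17.7 and 18.6. Ligands and their modifiers had 8 of 12, with weak promoters at Dll4 (4.22, 7.65, 4.60 and 5.15) and stronger ones at Mib1, a ligand ubiquitin ligase gene (27.0, 27.3, 13.4 and 17.3). Of 5 further Hes genes, 1 was called in Cho Rep1, 4 in Cho Rep2, 2 in WT and 3 in the deletion. Hes6 was open in all 4 lists (14.8, 32.6, 20.9 and 17.2), Hes5 was weak where called (4.74, 4.72 and 6.28, with no peak in Cho Rep1) and Hes2 was in no list. Notch4, the endothelial receptor gene, was called in Cho Rep2 (4.06) and in the deletion (6.39) and not in the other 2 lists.

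Furin and Hes2 had a promoter peak in none of the 4 lists at the annotated 5′ end, and Maml2 and Hes7 in Cho Rep2 alone, with 21.0 and 6.70. Of 38 genes with both values, 4 were at least 1.5 times higher in the deletion and none was lower by that factor, against 6.7% and 0.393% of all promoters. The 4 were Mfng, a glycosyltransferase gene that modifies the receptors (5.97 in WT and 12.1 in the deletion, ratio 2.03), Dtx1, an E3 ligase gene (4.98 and 9.23, 1.85), Psen2 (7.26 and 11.8, 1.62) and the ligand gene Dll3 (7.15 and 11.2, 1.57). The scaled pileup ratio was 1.44 at Mfng (0.608 to 3.78), 1.54 at Dtx1 (0.572 to 4.80), 1.15 at Psen2 (0.515 to 2.76) and 1.33 at Dll3 (0.607 to 3.12), and each interval included 1. These 4 promoters were weak in WT, as were Notch1 and Notch3. The 1 added to pileup and background weighs more where pileups are small, and its part in these values was not tested. The median ratio over the 38 genes was 1.03. The 95% counting interval of the scaled ratio lay below 1 at Aph1b, 0.632 (0.442 to 0.903), and at Hes6, 0.671 (0.461 to 0.980), on a measure whose median over all promoters was −0.26 on the log2 scale.

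**Figure D4:**
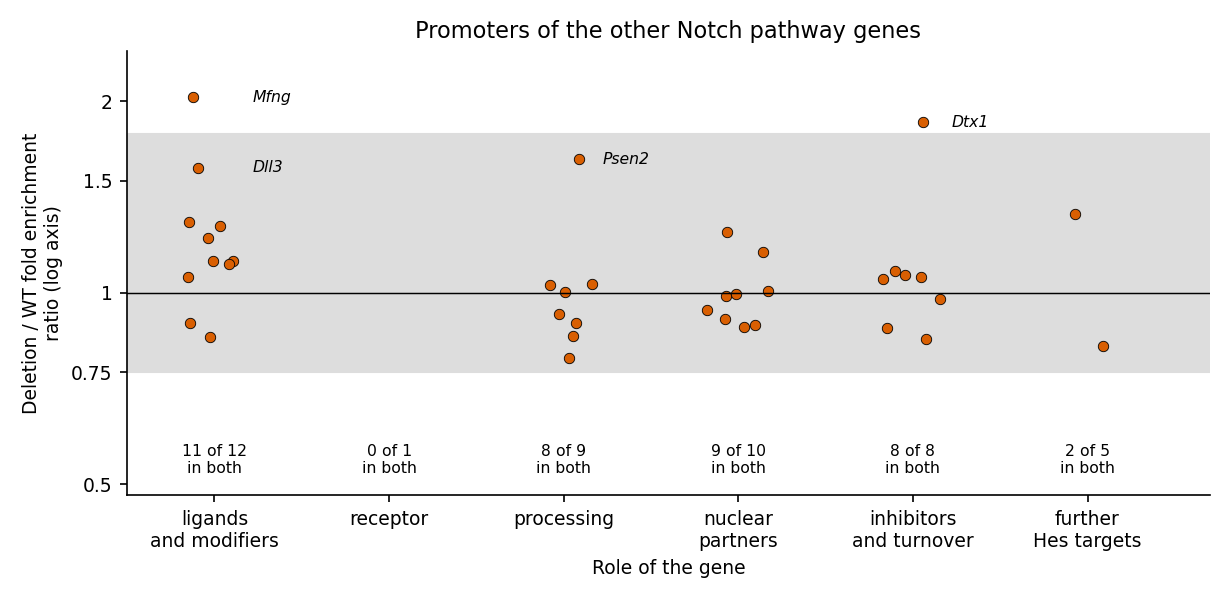
Ratio of fold enrichment in the deletion library to WT (log axis) for the 38 of 45 other Notch pathway genes with a promoter peak in both lists, 1 point per gene, grouped by role, over a grey band for the central 95% of all promoters. The labelled genes Mfng, Dtx1, Psen2 and Dll3 have ratios from 1.57 to 2.03, and no gene falls below the band.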

How the data were processed

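Primary rib chondrocytes were profiled by ATAC-Seq in 4 libraries. Per the study methods and the submitters' processing notes, the authors trimmed reads with fastp, aligned them with Bowtie2 2.4.4, removed duplicates with Picard (2.20.7 in the submitters' notes, another version in the methods) and called peaks with MACS2 2.2.4 at a q-value of 0.05, on each library alone. Each deposited list holds fold enrichment, a ratio of the pileup at the summit to the background after 1 is added to each. It also holds, as deposited, p-values and q-values as −log10, and a score that the authors' caller derives from the q-value. The methods name mm9, but Cho Rep2 was read as GRCm38, whose gene positions its peaks fit. No coordinates were converted.

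The 10 genes and the other lists were chosen with earlier results of these data known. One row per interval, the one of highest fold enrichment, was kept. Gene positions were those of GENCODE vM1 (NCBIM37) and RefSeq (GRCm38.p6). Whole summit pileups and backgrounds were solved from these values, with the Poisson tail that MACS2 computes, for at least 99.99% of the peaks checked in each list; the solution was tested on simulated data. Pileups were scaled by the most frequent background of a library. Counting intervals are exact conditional binomial (pileups) or Clopper-Pearson (shares) at 95%, treat pileups as counts and cover counting error only. Peaks overlapped at 1 bp or more, and Cho Rep2 peaks were matched by distance from the start, within 150 bp. In Cho Rep1 a long interval can match several peaks of another list. A gene outside the 10 was named when its promoter had a peak in no list or 1 list, or a ratio of the deletion to WT of 1.5 or more either way, and genes that illustrate a role were added after their values were seen. Distal sites were the strongest WT peak that overlapped the deletion list, outside 1 kb of any transcript start; 1 of them and 1 pathway gene are not reported here. Alternatives covered other windows, thresholds, measures and starts. Work used Python 3.11.15, numpy 2.4.6, scipy 1.17.1 and pandas 2.3.3.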

Additional observations from a re-analysis of the deposited data

How the results depend on the processing

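Promoter counts stayed within 1.5 times their values under every alternative run, with 6 to 10 of the 10 genes in Cho Rep1, 7 to 9 in Cho Rep2, 7 to 10 in WT and 9 or 10 in the deletion. The median log2 ratio of the members was −0.45 on scaled pileups and −0.047 within 2 kb, and turned to 0.070 on −log10 q-values, a measure that rises with depth. The number of genes at least 1.5 times higher in the deletion, 2 in the report, was 0 on scaled pileups and 1, Notch3, at the starts that match GRCm38, an alternative chosen after the data were seen. With equal numbers of the strongest peaks in both lists, the longer list loses its weaker peaks. The ratio of locus peaks then turned from 1.70 to 0.864 and the share of WT peaks found in the deletion fell to 78.4%. The same values over all loci were not computed, and the reason for the changes was not tested. The mean Cho fold enrichment of 11.5 was 12.7 within 2 kb, and 11.3 to 11.7 when either Cho replicate was left out. On pileups over library background, added after the data were seen, it was 36.4 ± 24.9 (SD, n = 2). With GTGGGAA in place of TGGGAA as the RBPJ letters, 1 promoter and not 2 held them. No paired analysis was possible because neither genotype had a second library. Single libraries, pileups under 10 at the weakest promoters and different calling settings in the Cho lists limit all comparisons.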
